A study of Mus musculus with 16 samples.

Results

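The genes described here are 10 regulators of the G1 phase of the cell cycle, chosen by name: the D-type cyclins *Ccnd1*, *Ccnd2* and *Ccnd3*, the E-type cyclins *Ccne1* and *Ccne2*, the kinases *Cdk4* and *Cdk6*, and the kinase inhibitors *Cdkn1a*, *Cdkn1b* and *Cdkn2c*. All 10 were among the 39057 rows of the count table, and all 10 were among the 12481 genes with enough counts to be tested. The data are RNA sequencing of 16 primary cultures of brain endothelial cells, the cells that line brain vessels, each from the cortices of 1 mouse. All mice were *APOE* targeted replacement animals, in which the human *APOE* gene stands in place of the mouse gene and is driven by the mouse promoter in every cell type. They carried either *APOE3* (8 cultures) or *APOE4* (8 cultures), with 4 males and 4 females in each genotype, and were 21 to 28 days old. Cultures were selected with puromycin, which brain endothelial cells export, were grown to confluence and were left untreated, so none of the groups had a drug or an inflammatory stimulus.

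Cells commit to division in G1. D-type cyclins, made in response to growth factors, activate CDK4 and CDK6, which begin to phosphorylate the retinoblastoma protein, and E-type cyclins then activate CDK2, which completes this and releases the E2F factors that switch on genes for DNA synthesis. Inhibitors act against both steps: p21 (*Cdkn1a*, a target of p53) and p27 (*Cdkn1b*) bind cyclin-kinase complexes, and p18 (*Cdkn2c*) binds CDK4 and CDK6 themselves. Endothelial cells in a mature brain rarely divide, whereas in culture they divide until they reach confluence.

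Promoters of 7 of the 10 genes could be read from RefSeq (build GRCm38.p6), and 3 are shown because they hold sequences known to be bound by regulators of this pathway. The 250 bases before each start were searched on both strands for the E-box CACGTG bound by MYC family proteins, for the p53 core (CATG repeated after a gap of 6 bases) and for the E2F core. The E2F core was TTGGCGC or its variant TTCCCGC, and likewise TTCGCGC or its variant TTGCCGC. In the lines below, which run 5′ to 3′ and end at the base before the start, capitals mark the matches. The first is the upstream start of *Cdkn2c* (chr4:109666757-109667006, minus strand), with an E2F core 25 to 19 bases before the start. The next is the upstream start of *Cdkn1a* (chr17:29090729-29090978, plus strand), with a p53 core 48 to 35 bases before the start. The last is *Cdk4* (chr10:127063285-127063534, plus strand), with 4 E-boxes.
Cdkn2c: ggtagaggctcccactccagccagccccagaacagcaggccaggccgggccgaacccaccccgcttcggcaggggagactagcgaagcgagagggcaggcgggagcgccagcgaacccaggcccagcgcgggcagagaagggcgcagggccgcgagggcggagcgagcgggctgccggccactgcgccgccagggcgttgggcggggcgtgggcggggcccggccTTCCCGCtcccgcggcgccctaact
Cdkn1a: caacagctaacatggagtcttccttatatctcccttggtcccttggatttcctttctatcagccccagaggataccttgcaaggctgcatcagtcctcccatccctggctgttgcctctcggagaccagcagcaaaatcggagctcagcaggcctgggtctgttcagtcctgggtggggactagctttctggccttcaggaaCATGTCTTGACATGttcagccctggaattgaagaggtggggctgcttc
Cdk4: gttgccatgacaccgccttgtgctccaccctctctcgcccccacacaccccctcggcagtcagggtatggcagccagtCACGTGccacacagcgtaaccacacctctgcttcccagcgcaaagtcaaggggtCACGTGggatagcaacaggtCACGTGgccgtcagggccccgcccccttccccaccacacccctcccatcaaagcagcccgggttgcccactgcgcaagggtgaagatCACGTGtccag
The E2F core was present in 7.89% of the 32851 promoters of the same length, the p53 core in 0.49% and the E-box in 6.02%, while 3 or more E-boxes were present in 0.0609%. *Cdk6* held 1 E-box, and no match was found in the windows of *Ccnd3*, *Ccne1* and *Cdkn1b*. The downstream starts of *Cdkn2c* and *Cdkn1a* were also searched and held no match. *Ccnd1*, *Ccnd2* and *Ccne2* were not among the promoters. A match describes the letters only and was not tested as a binding site.

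The libraries held between 12717847 and 18624417 counts, and the 10 genes had from 86 counts (*Ccne2*) to 20957 counts (*Ccnd1*) in a library. No pair of libraries held identical counts, and their Spearman correlations across genes lay between 0.979 and 0.996. Human *APOE* had 15504 to 22318 counts in *APOE3* libraries and 7672 to 14722 in *APOE4* libraries. These raw counts did not overlap, but they are not scaled to library size. The row of mouse *Apoe* had 212 to 290 counts in *APOE3* and 128 to 251 in *APOE4*, and the source of these reads was not tested. Gene counts do not separate the *APOE3* and *APOE4* alleles, so which allele a library carries was not checked. Brain endothelial markers summed to between 12400 and 13500 CPM (counts scaled by the normalized library size) in every library, and 0 of these 10 markers passed the test for genotype. Markers of pericytes and smooth muscle summed to 187 to 352 CPM in *APOE3* and 221 to 338 CPM in *APOE4*, those of fibroblasts to 12.5 to 60.5 and 8.49 to 77.1 CPM, and those of neurons to 8.64 to 12.6 and 10.4 to 15.0 CPM. Those of astrocytes, microglia and the oligodendrocyte lineage each summed to under 5 CPM, with *P2ry12*, *Olig1* and *Olig2* at 0. None of the other-cell markers that could be tested passed.

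On a scale set by annotated length (CPM per kilobase of annotated exon, all transcripts merged), *Ccnd1* was the most abundant of the 10 transcripts and *Ccne2* the least. *Ccnd1* was at 205.6 ± 27.6 CPM per kilobase (mean ± SD over 16 libraries), followed by *Cdkn1a* at 68.0 ± 3.83, *Cdk4* at 40.3 ± 3.14 and *Ccnd3* at 23.1 ± 1.34. Below these lay *Cdkn2c* at 15.9 ± 4.58, *Ccnd2* at 14.5 ± 2.29 and *Cdkn1b* at 13.1 ± 1.30 CPM per kilobase, and the ranges of neighbours in this stretch overlapped, from *Ccnd3* through *Cdkn1b*. *Cdk6* (6.35 ± 0.370) and *Ccne1* (6.13 ± 1.16) also overlapped, and *Cdk6* was the higher in 7 of 16 libraries. *Ccne2* was lowest at 2.64 ± 0.637 CPM per kilobase and was below *Ccne1* in all 16. *Cdk6* has the longest annotated exons (13989 bases), which lowers its value on this scale if the cells use shorter transcripts. The same holds for *Ccnd2* (9409 bases) and *Ccnd3* (8775 bases), beside 4709 bases for *Ccnd1*. The order of the genes and the shares given below depend on these lengths.

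**Figure D1:**
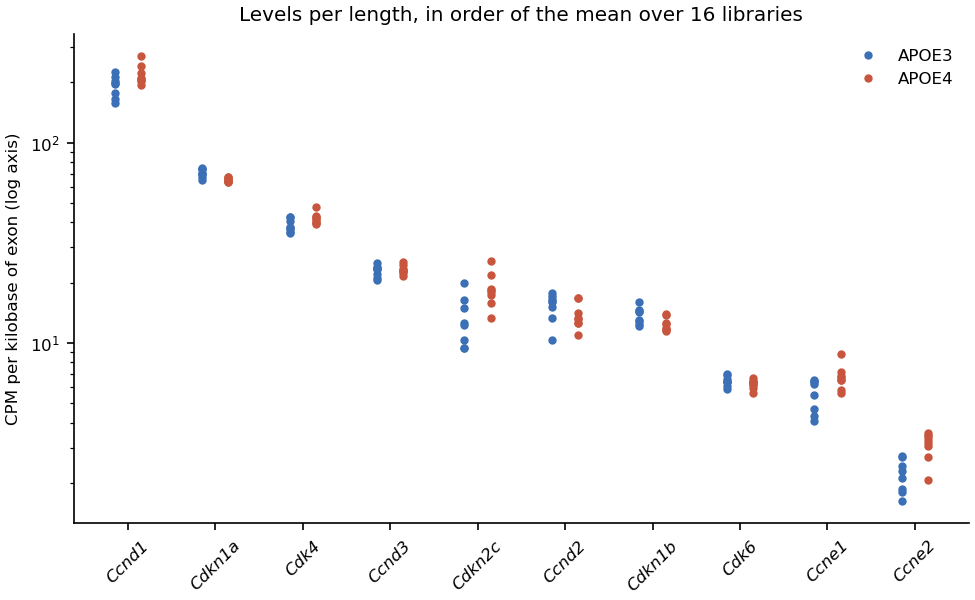
Level of each gene in each library, in CPM per kilobase of annotated exon on a log axis, with genes ordered by their mean over 16 libraries (blue *APOE3*, red *APOE4*, 8 libraries each). *Ccnd1* stands above every other gene in every library and *Ccne2* is lowest, while *Cdkn2c*, *Ccnd2* and *Cdkn1b* share one range.

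The first comparison asked which of these genes differed between *APOE4* and *APOE3* cultures. *Ccne2* and *Cdkn2c* were higher with *APOE4*, by 40.9% and 42.0%, and *Cdkn1a* was lower, by a change of -7.65%. By edgeR's quasi-likelihood test with Benjamini-Hochberg adjustment over all genes tested, 3 of the 10 genes passed an adjusted p of 0.05, compared with 12.8% of all genes. Of all genes, 6.71% passed as higher and 6.09% as lower. At an unadjusted p under 0.05 the count was 7 of 10 genes, compared with 29% of all genes. None of the 10 separated the genotypes without overlap, which 0.625% of all genes did. The remaining 7 genes are described by their values, since a p above the threshold does not show that the genotypes were alike. In bulk RNA, a larger share of cells in one phase and more RNA per cell cannot be told apart. The paper reported that proliferation, measured by bromodeoxyuridine, and cell density at confluence did not differ between the genotypes. From its RNA sequencing, it also listed cell cycle and differentiation among the categories that it proposes *APOE* modulates.

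**Figure D2:**
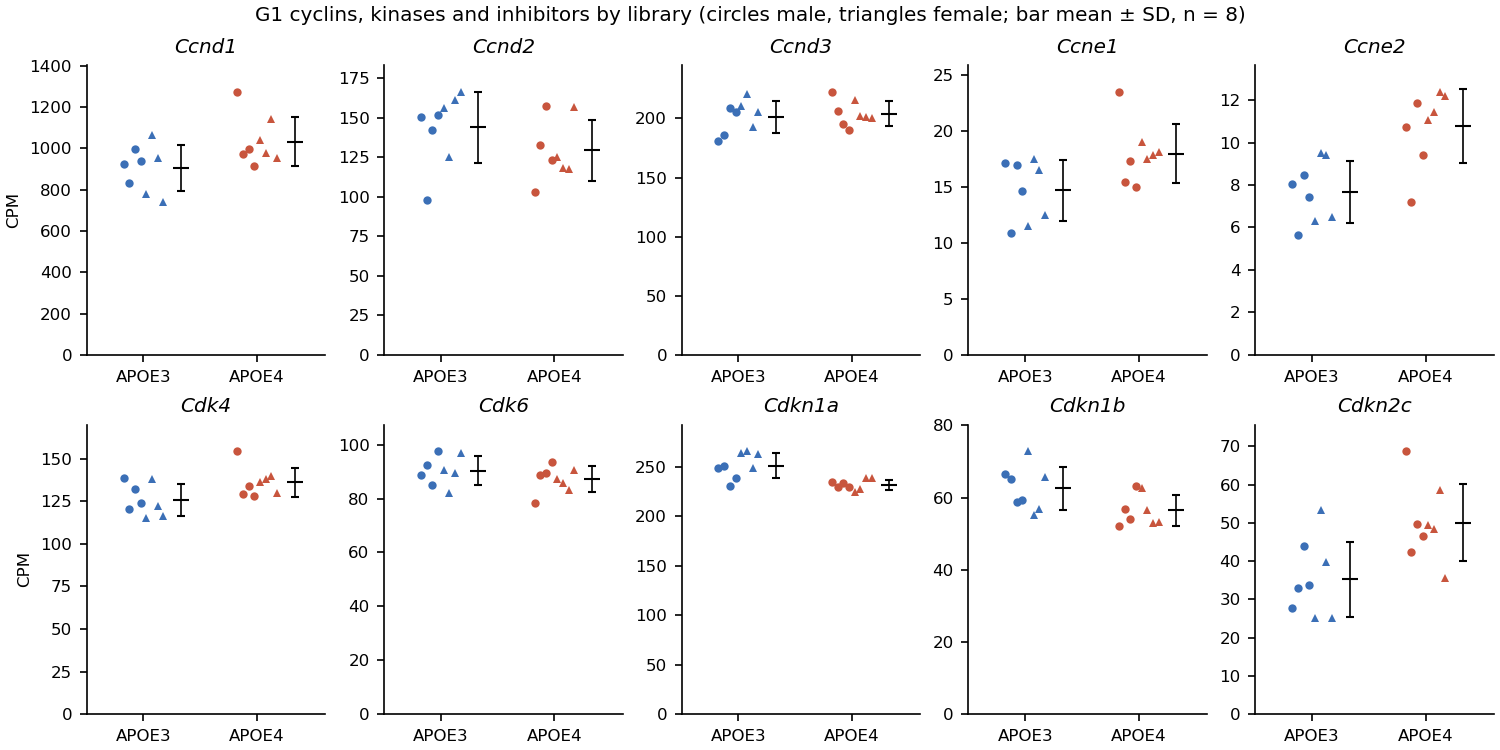
CPM of each gene in each library by genotype (8 libraries each, circles male, triangles female), with bars for the mean ± SD. The genotypes overlap in every panel, with 6 *APOE4* libraries above all *APOE3* libraries for *Ccne2* and 7 *APOE3* libraries above all *APOE4* libraries for *Cdkn1a*.

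Among the D-type cyclins none passed the test. *Ccnd1*, the main growth factor-induced cyclin, ran from 739 CPM through a median of 931.1 to 1063 CPM in *APOE3*, and from 912.3 through 986 to 1275 CPM in *APOE4*. In 7 of 8 *APOE4* libraries it was above the *APOE3* median, and 3 *APOE3* libraries lay below the lowest *APOE4* library. The log2 fold change of *Ccnd1* was 0.19 (SE 0.0744, edgeR adjusted p = 0.0885). *Ccnd2* ran from 97.8 through 151.4 to 166.6 CPM in *APOE3* and from 102.9 through 124.2 to 157.7 CPM in *APOE4*. Its groups overlapped over most of their range, with 6 of 8 *APOE4* libraries below the *APOE3* median. The log2 fold change of *Ccnd2* was -0.15 (SE 0.0967, edgeR adjusted p = 0.309). *Ccnd3* had nearly the same range in both genotypes, 181.2 to 221.0 CPM in *APOE3* and 190.4 to 222.7 CPM in *APOE4* (log2 fold change 0.02, SE 0.0422, edgeR adjusted p = 0.809). *Ccnd1* made up 83.2% ± 2.25 of the summed D-type cyclin level per kilobase in *APOE3* and 85.5% ± 1.52 in *APOE4* (SD, n = 8). These shares depend on the annotated exon lengths and were not tested. *Ccnd1* shares 1100 exon bases with *LTO1* on the opposite strand, which had 293 to 424 counts in a library, far fewer than *Ccnd1*.

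The E-type cyclins drive entry into S phase through CDK2. *Ccne2* ran from 5.65 CPM through a median of 7.73 to 9.50 CPM in *APOE3*, and from 7.20 through 11.3 to 12.4 CPM in *APOE4*. The groups overlapped through *APOE4* replicates 36 and 38, both male, and the other 6 *APOE4* libraries lay above every *APOE3* library. *Ccne2* averaged 7.67 ± 1.45 CPM in *APOE3* and 10.8 ± 1.73 CPM in *APOE4* (SD, n = 8), a log2 fold change of 0.49 (SE 0.119, edgeR adjusted p = 0.0131). *Ccne1*, which acts with the same kinase, ran from 10.9 through 15.6 to 17.5 CPM in *APOE3* and from 15.0 through 17.7 to 23.5 CPM in *APOE4*. Its highest library was *APOE4* replicate 35, and 4 *APOE3* libraries lay below the lowest *APOE4* library. The log2 fold change of *Ccne1* was 0.29 (SE 0.108, edgeR adjusted p = 0.0798). *Ccne2* shares 609 exon bases with *Ints8* on the opposite strand, whose own log2 fold change was 0.10 (edgeR adjusted p = 0.120).

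Neither kinase passed. *Cdk4* ran from 114.9 CPM through a median of 122.8 to 138.4 CPM in *APOE3*, and from 128.0 through 135.1 to 154.5 CPM in *APOE4*. All 8 *APOE4* libraries were above the *APOE3* median, but 3 *APOE3* libraries lay within the *APOE4* range. The log2 fold change of *Cdk4* was 0.11 (SE 0.0459, edgeR adjusted p = 0.102). *Cdk6*, which pairs with the same cyclins, ran from 82.2 to 97.7 CPM in *APOE3* and from 78.4 to 93.7 CPM in *APOE4*, and its log2 fold change was -0.05 (SE 0.0406, edgeR adjusted p = 0.419). *Cdk4* shares 641 exon bases with *Tspan31* on the opposite strand (877 to 1232 counts, log2 fold change 0.04, edgeR adjusted p = 0.512).

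The inhibitors did not move together. *Cdkn1a* ran from 230.0 CPM through a median of 249.6 to 266.0 CPM in *APOE3*, and from 224.6 through 231.6 to 238.5 CPM in *APOE4*. In each of the 8 *APOE4* libraries it was under the *APOE3* median, and 7 of 8 *APOE3* libraries, all but replicate 27, were above the highest *APOE4* library. *Cdkn1a* averaged 251.2 ± 12.7 CPM in *APOE3* and 231.9 ± 5.08 CPM in *APOE4* (SD, n = 8), a log2 fold change of -0.11 (SE 0.0323, edgeR adjusted p = 0.0262). Without *APOE3* replicate 30 or 33 the difference no longer passed, and over the 16 fits that each left out 1 library its adjusted p reached 0.0619.

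*Cdkn2c* moved the other way. It ran from 25.2 CPM through a median of 33.4 to 53.3 CPM in *APOE3*, and from 35.5 through 49.0 to 68.9 CPM in *APOE4*. All 8 *APOE4* libraries were above the *APOE3* median, the highest being replicate 35, while *APOE3* replicate 31 reached the upper part of the *APOE4* range. *Cdkn2c* averaged 35.2 ± 9.92 CPM in *APOE3* and 50.01 ± 10.1 CPM in *APOE4* (SD, n = 8), a log2 fold change of 0.51 (SE 0.145, edgeR adjusted p = 0.0285). Leaving out *APOE3* replicate 26, 30 or 33, or *APOE4* replicate 35 or 41, raised its adjusted p above the threshold, to at most 0.0644. *Cdkn1b* ran from 55.3 through 62.3 to 73.0 CPM in *APOE3* and from 52.3 through 55.4 to 63.2 CPM in *APOE4*. In 4 *APOE4* libraries it was below every *APOE3* library, and the others overlapped (log2 fold change -0.15, SE 0.0571, edgeR adjusted p = 0.0958). Of the summed level per kilobase of these 3 inhibitors, *Cdkn2c* made up 13.4% ± 3.45 in *APOE3* and 19.2% ± 3.10 in *APOE4*, and *Cdkn1a* 72.5% ± 2.23 and 67.9% ± 2.59 (SD, n = 8, not tested).

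The count moved with 1 library, as did that over all genes. Without *APOE3* replicate 31, the *APOE3* library with the highest *Ccnd1*, *Ccne1*, *Ccne2*, *Cdkn1a* and *Cdkn2c*, 7 of the 10 genes passed, with *Ccnd1*, *Ccne1*, *Cdk4* and *Cdkn1b* added, and 16.9% of all genes passed. Without *APOE3* replicate 30 or 33, 1 of the 10 passed, and 6.81% and 7.57% of all genes. *Ccne2* passed in all 16 such fits, *Cdkn1a* in 14 and *Cdkn2c* in 11.

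The design also allowed the genotypes to be compared within each sex. The difference in *Ccne2* was 0.40 on the log2 scale in males (SE 0.166) and 0.57 in females (SE 0.163), and that in *Cdkn2c* was 0.58 (SE 0.215) and 0.43 (SE 0.215). *Cdkn1a* averaged 242.0 ± 9.48 CPM in *APOE3* males and 231.8 ± 2.75 CPM in *APOE4* males (SD, n = 4). In females *Cdkn1a* averaged 260.3 ± 7.90 and 232.1 ± 7.26 CPM, with every *APOE4* female below every *APOE3* female. *Ccne2* also did not overlap in females, at 6.32 to 9.50 CPM in *APOE3* and 11.07 to 12.4 CPM in *APOE4*. With 4 libraries against 4, 9.34% of all genes did not overlap in females and 7.98% in males, where 0 of the 10 did so. The log2 differences in *Cdkn1a* were -0.06 (SE 0.0406) in males and -0.17 (SE 0.0406) in females, and the test of the difference between them did not pass (difference -0.10, SE 0.0574, edgeR adjusted p = 1.00). Within males and within females edgeR passed 0 genes, with 14.2% and 19.5% of genes at an unadjusted p under 0.05, and DESeq2 passed 34 and 418 genes. The 418 genes in females included *Ccne2* and *Cdkn1a*. The genotype difference itself differed between the sexes for 0 genes by either tool, with 2.76% of genes at an unadjusted p under 0.05 by edgeR. Sex alone passed for 9 genes (0.0721% of all, with 4.26% at an unadjusted p under 0.05), and 0 of the 10 were among them.

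**Figure D3:**
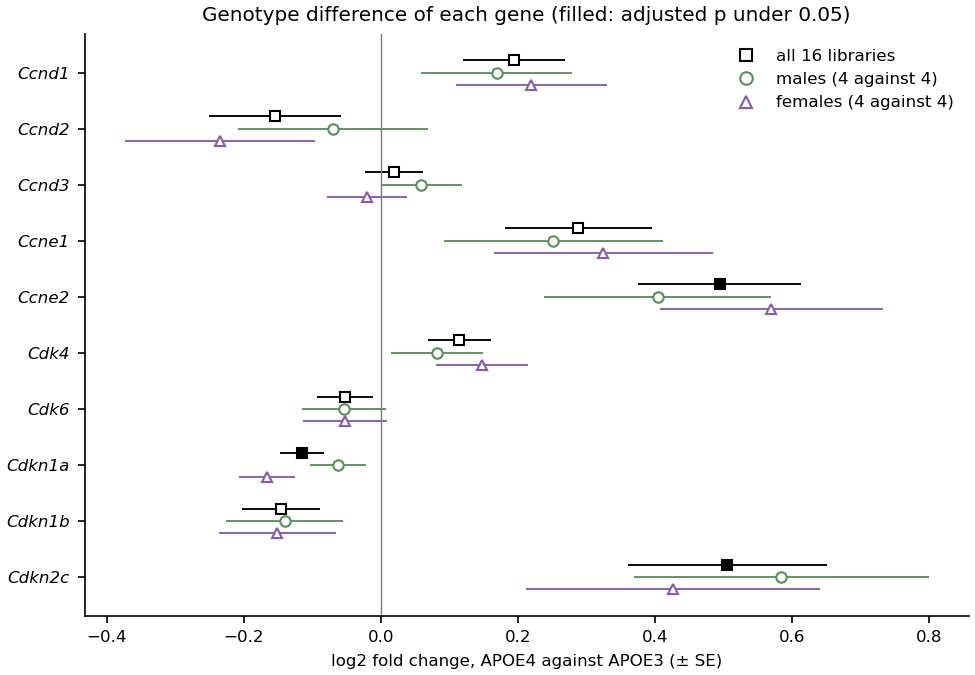
Log2 fold change of *APOE4* against *APOE3* for each gene (± SE) over all 16 libraries (squares), in males (circles) and in females (triangles), with filled symbols for an adjusted p under 0.05. Only *Ccne2*, *Cdkn1a* and *Cdkn2c* over all libraries are filled, and the intervals of the sexes overlap for all genes except *Cdkn1a*.

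Each gene was next set against a cell cycle score, the mean log2 CPM of 39 genes of S phase, G2 and mitosis that include none of the 10. The score ran from 4.91 through a median of 5.35 to 5.85 in *APOE3*, and from 5.56 through 5.82 to 6.31 in *APOE4*. The groups overlapped, and the mean was higher by 0.517 with *APOE4* (two-sided exact permutation test, p = 0.00249 over 12870 assignments). The 39 genes were chosen with earlier results of these data known, so this difference is not independent evidence. Score and gene come from the same libraries and depend on one normalization. With 10 relations computed, adjusted values are over these 10. Over 16 libraries, 9 of the 10 passed with an absolute Pearson's r of at least 0.573, a size that 32.9% of all genes outside the score also had. Such an r also carries the difference between genotypes in score and gene, so values within each genotype are given beside it. The 9 include *Cdkn1a*, whose r did not pass within either genotype. Its rho over 16 libraries did not pass either (permutation adjusted p = 0.0824).

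*Cdkn2c* followed the score most closely, although its product is an inhibitor. Over 16 libraries Pearson's r was 0.958 (permutation p = 1e-05, the smallest 100000 permutations can give, adjusted p = 5e-05) and Spearman's rho 0.941 (permutation adjusted p = 0.0002). Within genotypes r for *Cdkn2c* was 0.929 in *APOE3* and 0.938 in *APOE4*, and without the 2 libraries farthest from the median score, *APOE4* replicate 35 and *APOE3* replicate 33, it was 0.933. Of all genes outside the score, 0.812% had an r as high, compared with 1.55% for *Ccnd1*, 2.75% for *Cdk4*, 4.69% for *Ccne1*, 6.1% for *Ccne2* and 31.6% for *Ccnd3*. *Ccnd1* had r = 0.930 (rho 0.821, permutation p = 1e-05 and 0.00028, adjusted p = 5e-05 and 0.00105), with 0.964 in *APOE3*, 0.873 in *APOE4* and 0.869 without those 2 libraries. *Cdk4* had r = 0.887 (rho 0.788, permutation p = 4e-05 and 0.00042, adjusted p = 0.000133 and 0.00105), with 0.825, 0.886 and 0.804. By rank within *APOE3*, rho was 0.929 for *Cdkn2c*, 0.976 for *Ccnd1* and 0.786 for *Cdk4* (exact permutation p = 0.00223, 0.000397 and 0.0279, unadjusted). Within *APOE4* rho was lower, at 0.738, 0.548 and 0.643 (exact permutation p = 0.0458, 0.171 and 0.0962, unadjusted).

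The E-type cyclins rose with the score less closely. *Ccne1* had r = 0.833 (rho 0.788, permutation p = 8e-05 and 0.00041, adjusted p = 0.0002 and 0.00105), with 0.774 in *APOE3*, 0.708 in *APOE4* and 0.734 without the 2 farthest libraries. *Ccne2* had r = 0.794 (rho 0.771, permutation p = 0.0003 and 0.0007, adjusted p = 0.0006 and 0.0014), with 0.780 in *APOE3* and 0.807 without the 2 libraries. Within *APOE4*, r for *Ccne2* was 0.354 (exact permutation adjusted p = 0.463), so the relation did not pass in that genotype. By rank, rho for *Ccne1* and *Ccne2* was 0.833 and 0.881 within *APOE3* (exact permutation p = 0.0154 and 0.00724, unadjusted). Within *APOE4* it was 0.333 and 0.0952 (exact permutation p = 0.428 and 0.840, unadjusted).

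Of the other genes, 4 had a negative r over 16 libraries that passed, and *Ccnd3* did not pass. An r as low was found in 7.08% of all genes for *Cdk6*, 7.38% for *Cdkn1b*, 16.3% for *Ccnd2* and 16.7% for *Cdkn1a*. *Cdk6* had r = -0.756 (rho -0.706, permutation p = 0.00099 and 0.00323, adjusted p = 0.00141 and 0.00461), with -0.765 in *APOE3* and -0.821 in *APOE4*. Without the 2 farthest libraries r for *Cdk6* was -0.563 (permutation adjusted p = 0.0510). By rank, rho for *Cdk6* was -0.810 within *APOE3* and -0.571 within *APOE4* (exact permutation p = 0.0218 and 0.151, unadjusted). *Cdkn1b* had r = -0.751 (rho -0.750, permutation p = 0.00075 and 0.00128, adjusted p = 0.00125 and 0.00213), with -0.822 in *APOE3*, -0.317 in *APOE4* and -0.691 without the 2 libraries. *Ccnd2*, a D-type cyclin like *Ccnd1*, had r = -0.580 (rho -0.562, permutation p = 0.0183 and 0.0263, adjusted p = 0.0229 and 0.0328), with -0.345 in *APOE3* and -0.781 in *APOE4*. Without the 2 farthest libraries r for *Ccnd2* was -0.352 and did not pass (permutation adjusted p = 0.241). By rank, its rho was -0.476 within *APOE3* and -0.881 within *APOE4* (exact permutation p = 0.243 and 0.00724, unadjusted). *Cdkn1a* had r = -0.573 (rho -0.462, permutation p = 0.0209 and 0.0742, adjusted p = 0.0232 and 0.0824), but -0.266 in *APOE3* and 0.275 in *APOE4*, so its relation did not pass within either genotype, and r was -0.485 without the 2 libraries. *Ccnd3* had r = 0.289 (rho 0.256, permutation p = 0.278 and 0.335, adjusted p = 0.278 and 0.335), with 0.170 in *APOE3*, 0.471 in *APOE4* and 0.178 without the 2 libraries.

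**Figure D4:**
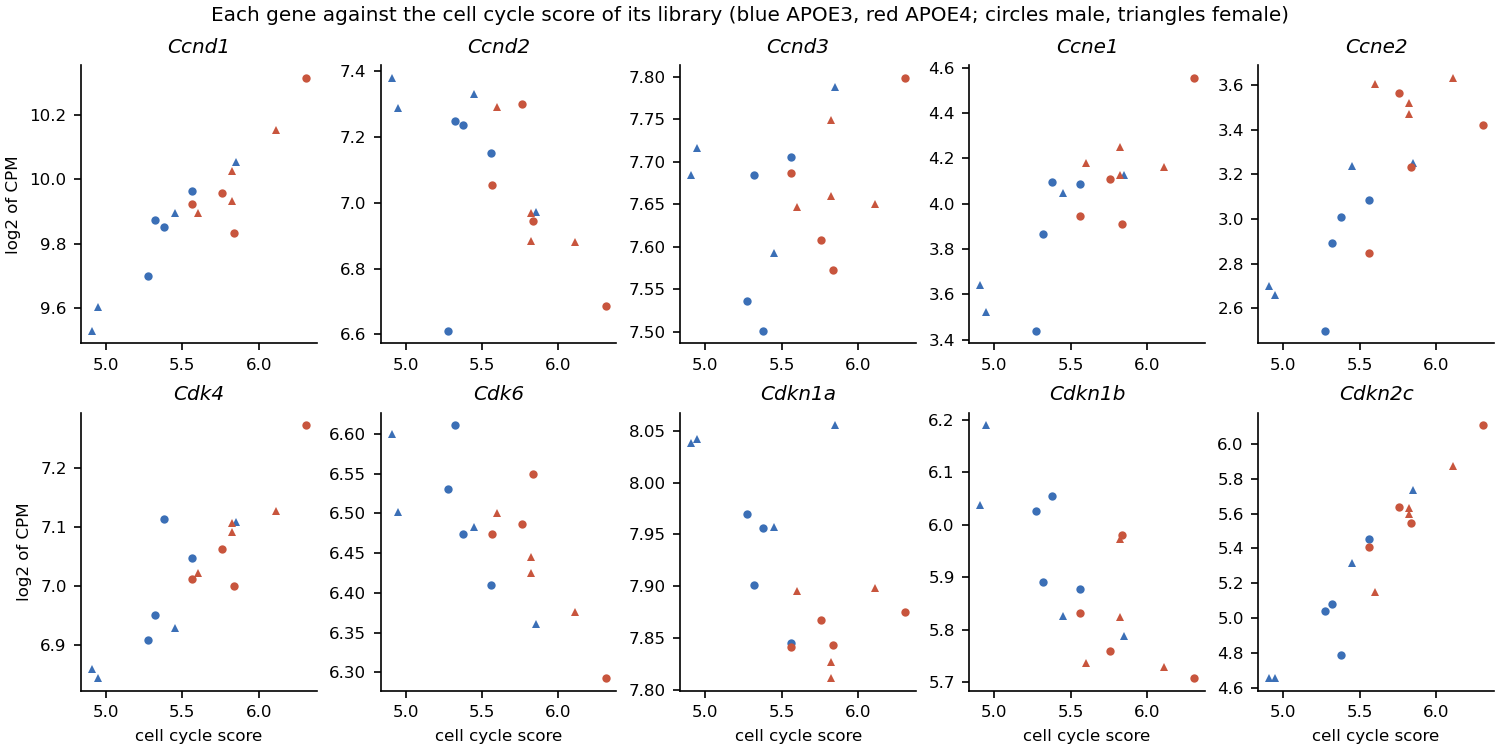
Log2 CPM of each gene against the cell cycle score of its library (16 libraries, blue *APOE3*, red *APOE4*, circles male, triangles female). By Pearson's r, *Cdkn2c*, *Ccnd1* and *Cdk4* rise with the score within both genotypes, and *Cdk6* falls. By rank within *APOE4*, *Ccnd1*, *Cdk4* and *Cdk6* have an unadjusted exact permutation p above 0.05. *Cdkn1a* is lower with *APOE4* (r of -0.266 and 0.275 within *APOE3* and *APOE4*).

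With the score added to the genotype fit, 0 of 12481 genes passed. *Ccne2* then had a log2 fold change of 0.22 (SE 0.142, edgeR adjusted p = 0.740). *Cdkn1a* had one of -0.10 (SE 0.0443, edgeR adjusted p = 0.612), beside -0.11 without the score, and *Cdkn2c* one of -0.06 (SE 0.0776, edgeR adjusted p = 0.872). Most genes of the score passed as higher with *APOE4* themselves (12 of 19 of S phase, 20 of 20 of G2 and mitosis). This fit therefore cannot show which genotype differences depend on the cell cycle. Genotype and score move together in these 16 libraries and cannot be fully told apart, and the part of the score in the genotype differences was not tested otherwise.

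The genes whose levels moved most like each of the 10 were found by Pearson's r over 16 libraries after removing each genotype's mean, as a description. *Cdkn2c* was closest to *Pimreg* (0.97) and *Kif18b* (0.967), both genes of mitosis, and *Ccnd1* to *Asf1b* (0.95), a histone chaperone, and *Glipr2* (0.949). *Ccnd2* was closest to *Sema3g* (0.942) and *Efnb2* (0.931), both known as arterial endothelial genes. *Ccnd3* was closest to *Icam2* (0.902), an endothelial adhesion molecule, and *Gm47761* (0.854). For the E-type cyclins these were *Plpp2* (0.904) and *Cgas* (0.897) beside *Ccne1*, and *Pik3cb* (0.879) and *Mis12* (0.844), a kinetochore gene, beside *Ccne2*. For the kinases they were *Sdk2* (0.931) and *Prdx1* (0.921) beside *Cdk4*, and *Ubn2* (0.951) and *Nfat5* (0.925) beside *Cdk6*. *Cdkn1a* had the least close partners, *Taf9b* (0.806) and *Acsl1* (0.8), and *Cdkn1b* had *Zfand2b* (0.872) and *Trim34a* (0.865).

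Other genes of the pathway were counted in lists, beside the 6.71% of all genes that passed as higher and 6.09% as lower. The 10 genes had a median log2 fold change of 0.067, and all genes tested one of -0.000219. Among 4 other CDK inhibitors, 2 were higher and 0 lower. *Cdkn2d* (p19), of the same INK4 family as *Cdkn2c*, ran from 16.9 to 22.03 CPM in *APOE3* and from 19.3 to 28.3 CPM in *APOE4* (log2 fold change 0.39, SE 0.0799, edgeR adjusted p = 0.00748). *Cdkn2a*, which encodes p16 and p19ARF from transcripts that gene counts cannot separate, had only 3 to 25 counts in a library (log2 fold change 0.78, SE 0.237, edgeR adjusted p = 0.0359), and passed in 9 of the 16 fits that left out 1 library. *Cdkn2b* (p15) and *Cdkn1c* (p57) complete the list and did not pass, with log2 fold changes of -0.19 and -0.25 (edgeR adjusted p = 0.0696 and 0.0597), though *Cdkn1c* passed by DESeq2 (adjusted p = 0.0383).

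Of 13 genes of the retinoblastoma and E2F families, 4 were higher and 0 lower: *E2f8* (log2 fold change 0.48) and *E2f7* (0.44), both repressor E2Fs, the pocket protein *Rbl1* (0.31) and the E2F partner *Tfdp1* (0.28). None of 5 genes for CDK2 and its activators passed. Of 10 genes for the turnover of G1 cyclins and p27, 3 were higher, *Cks2* (0.58), *Cks1b* (0.48) and *Skp2* (0.35), and 0 lower. *Cks1b* kept its call in 10 and *Skp2* in 13 of the 16 fits that left out 1 library, and the count fell to 1 without *APOE3* replicate 26 or *APOE4* replicate 35 or 41. SKP2 with CKS1B marks p27 protein for degradation, which RNA counts do not measure. Of 16 other p53 targets, 0 were higher and 1 was lower, *Bbc3* (-0.29), and their median was -0.0122. Of 12 transcription factors upstream of G1 genes, *Foxm1* was higher (0.55), and *Klf4* (-0.39) and *Foxo3* (-0.11) were lower. Of all genes 6.71% passed as higher and 6.09% as lower, so the p53 target count and the 1 higher factor were near those shares. S phase genes passed as higher in 12 of 19 cases, with a median of 0.315, and genes of G2 and mitosis in 20 of 20, with a median of 0.686, and 0 were lower in either list. The S phase count was 5 without *APOE3* replicate 26 or *APOE4* replicate 41 and 6 without *APOE3* replicate 30 or 33 or *APOE4* replicate 35, and it reached 18 without *APOE3* replicate 31. In the fits with 5 or 6, between 6.74% and 8.59% of all genes passed in either direction. Without *APOE3* replicate 31 that share was 16.9%.

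**Figure D5:**
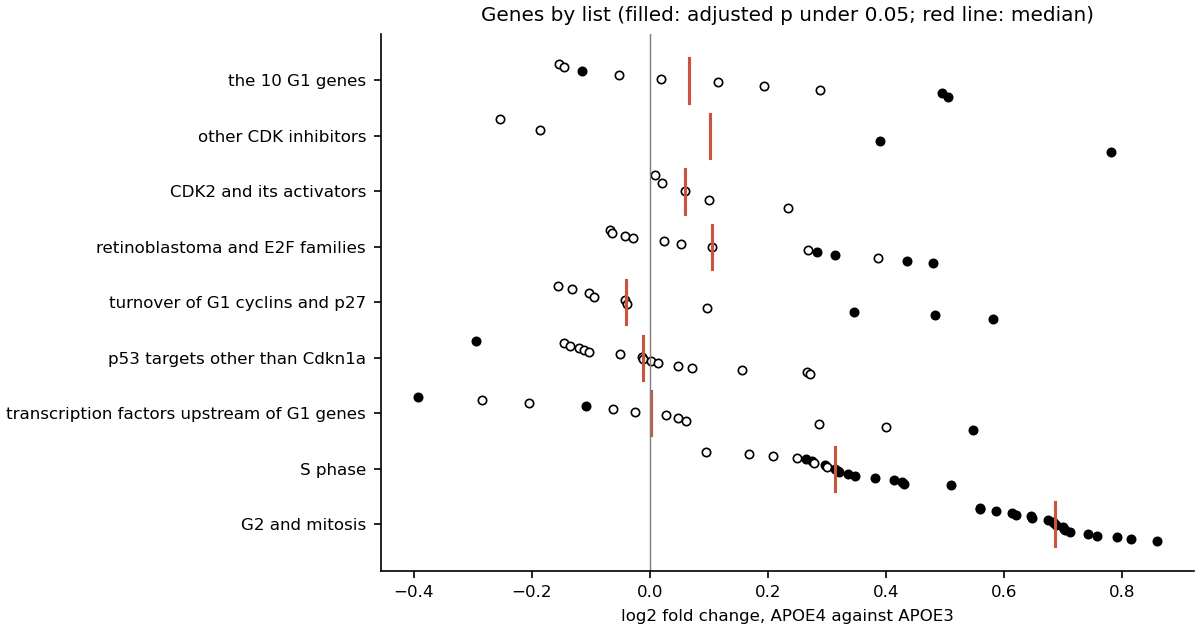
Log2 fold change of *APOE4* against *APOE3* for every tested gene of each pathway list, with filled points for an adjusted p under 0.05. The 20 genes of G2 and mitosis all lie above 0.5, S phase genes lie lower, and the 10 G1 genes spread from -0.15 to 0.51 on both sides of 0.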

How the data were processed

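Poly-A RNA of each culture was made into libraries with a kit that selects 1 strand, amplified for 17 PCR cycles and read in pairs of 50 nt. The authors deposited raw read counts per gene, and the submitters' notes name STAR, featureCounts, mm10 and hg38, while the strand setting of the counting is not given in the sources used here. Each of the 16 count columns matched 1 sample by name. No molecular identifiers are named, so after 17 cycles of PCR counts are not independent molecules.

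Genes were kept by filterByExpr on genotype, scaled by TMM and tested with edgeR (version 4.0.16, R 4.3.3) quasi-likelihood, genotype alone or 4 groups of genotype and sex, with Benjamini-Hochberg adjustment over 12481 genes. CPM used normalized library sizes, and log2 CPM a prior count of 2. Exon lengths came from GENCODE M21. DESeq2 1.42.0 and limma 3.58.1 gave alternatives, and the tests were checked on simulated counts. By rule, the text names the 10 genes, the 2 most alike genes of each, and up to 4 genes per list that passed, those of S phase, G2 and mitosis being given as counts. Relations to the score were tested by permutation. The 10 genes, the lists and the tests were chosen with earlier results of these data known. P-values measure the spread between these cultures, each grown from 1 brain according to the study's methods.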

Additional observations from a re-analysis of the deposited data

Results flagged for a closer look

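Each of the 10 genes was checked in each genotype for 1 library far from the other 7, which chance alone marks in about 1 in 20 of the 20 sets checked. *APOE4* replicate 35 was marked for *Ccne1*, at 23.51 CPM, and for *Cdk4*, at 154.5 CPM, in each case the highest of the 16 libraries. The same library had the highest cell cycle score, 6.31, and the highest *Ccnd1* and *Cdkn2c*. Whether the score plays a part in its *Ccne1* and *Cdk4* values was not tested.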

How the results depend on the processing

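DESeq2 size factors, DESeq2's Wald test, limma voom with quality weights, sex as a covariate, and filters of none or at least 10 counts in every library left the gene counts within 1.5 times and each of the 10 genes on its side of the threshold and in its direction. Genes and counts of the pathway lists were added to these alternatives after the data were seen. The named list genes that passed kept their calls, except that *Cdkn2a* lost its call without a filter and was not tested under the filter of 10 counts, and *Cdkn1c* passed by DESeq2. Over these settings 11 to 15 S phase genes and 20 of 20 genes of G2 and mitosis were higher. With the score in the model, 0 genes and 0 of the 10 passed. Log2 fold changes then were -0.0931 for *Ccnd1*, 0.0659 for *Ccnd2*, -0.0263 for *Ccnd3*, -0.0372 for *Ccne1*, 0.225 for *Ccne2*, -0.0376 for *Cdk4*, 0.0676 for *Cdk6*, -0.103 for *Cdkn1a*, 0.00289 for *Cdkn1b*, -0.0644 for *Cdkn2c*, -0.00971 for *E2f8*, -0.0835 for *Cks1b*, -0.0202 for *Cks2* and -0.0285 for *Foxm1*. The named list genes that kept their direction were *Cdkn2a* (0.517), *Skp2* (0.201), *Cdkn2d* (0.148), *Tfdp1* (0.0553), *E2f7* (0.0434) and *Rbl1* (0.0414). *Bbc3* (-0.20), *Foxo3* (-0.0984) and *Klf4* (-0.0362) also kept theirs. The cause of these changes was not tested. DESeq2 on the 4 groups passed 34 genes in males and 418 in females, 2 of them among the 10.

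Leaving out 1 library gave 846 (without *APOE4* replicate 41) to 2127 genes (without *APOE3* replicate 31) and 1 to 7 of the 10. Log2 fold changes then ran from 0.145 to 0.231 for *Ccnd1*, -0.00226 (without *APOE3* replicate 25, a reversal) to 0.0392 for *Ccnd3*, 0.227 to 0.327 for *Ccne1*, 0.0873 to 0.135 for *Cdk4*, -0.132 to -0.103 for *Cdkn1a*, -0.170 to -0.111 for *Cdkn1b* and 0.430 to 0.613 for *Cdkn2c*. *Foxo3* passed in 13 of these 16 fits, and 19 to 20 genes of G2 and mitosis were higher. In males 0 to 1 genes passed and in females 0 to 879, with 0 to 3 of the 10, the highest without *APOE3* replicate 31.

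Relations to the score that passed over 16 libraries but not in a part of them, by Pearson's r, were *Ccnd2* within *APOE3* (-0.345) and without the 2 farthest libraries (-0.352), *Ccne1* within *APOE4* (0.708), *Ccne2* within *APOE4* (0.354), *Cdk6* without the 2 libraries (-0.563), *Cdkn1b* within *APOE4* (-0.317), and *Cdkn1a* within *APOE3* (-0.266), within *APOE4* (0.275, reversed) and without the 2 libraries (-0.485). By rank within *APOE4*, *Ccnd1* (rho 0.548), *Cdk4* (0.643) and *Cdk6* (-0.571) also had an exact permutation p above 0.05 (0.171, 0.0962 and 0.151, unadjusted). Within 1 genotype these relations rest on 8 libraries, and a p above the threshold does not show that a relation was absent.

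No paired analysis was possible because the genotypes share no replicate numbers. With 86 counts at the lowest, *Ccne2* has the largest counting error of the 10. *Ccnd1*, *Ccnd3*, *Ccne2* and *Cdk4* share exon bases with expressed genes on the opposite strand, and whether the counting used strand is not given in the sources used here.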
